A study of Mus musculus with 56 samples.

Results

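A list of 38 autophagy genes was followed through all groups of a mouse kidney time course, out of 17027 genes in the table. The members were taken by name for their place in this pathway, with earlier results of these data known. All 38 were present and passed the filter on low values. Autophagy is the route by which a cell encloses part of its own content in a double membrane, the autophagosome, and delivers it to the lysosome for breakdown. It is held back by feeding signals through mTORC1 and released by fasting, and in the kidney it is known for keeping tubule cells and podocytes healthy. The machinery is usually described in steps: the ULK1 complex starts the process, a class III PI3-kinase complex marks the membrane, ATG9 vesicles, ATG2 and WIPI proteins make the membrane grow, a pair of ubiquitin-like conjugation systems attach LC3 and GABARAP proteins to it, and cargo receptors tie the cargo to them.

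The mice were female C57BL/6J animals aged 9 weeks fed normal chow, and the labels list no transgene; they lived under 12 h of light and 12 h of dark. For 7 days they had food only in the light phase (daytime-restricted feeding, DRF) or only in the dark phase (nighttime-restricted feeding, NRF). Kidneys were collected every 4 h over 24 h from ZT0 to ZT24, where ZT (zeitgeber time) counts hours from the start of light, with 4 mice per regimen and time point, which made 14 groups and 56 mice. Each library is 1 mouse.

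Poly(A) RNA-seq gave between 23.41 M and 25.8 M recovered reads (M, 1e6) per library, and replicate libraries of a group correlated at 0.969 or more across genes. Nephron markers were present in every condition: the summed level of 7 proximal tubule genes ranged from 7230 to 13100 CPM (counts per 1e6 reads) over the fasted and fed mice, and that of 7 collecting duct and medulla genes from 460 to 1190. Blood markers varied between mice from 171 to 2050 CPM in sum and adipose markers from 0.232 to 273, with no marker of either list past the test of fasted against fed mice. In that test 1 of 7 proximal tubule, 3 of 7 collecting duct, 1 of 3 thick ascending limb, 1 of 3 distal tubule, 1 of 3 podocyte, 1 of 5 immune and 0 of 5 liver markers passed. Summed immune markers ranged from 255 to 776 CPM under NRF and from 166 to 370 under DRF, and their part in the results was not tested. Values come from the whole organ, so fewer cells of a type and less RNA per cell cannot be told apart.

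The DRF and NRF regimens put the fast on opposite sides of the light cycle. Under NRF the mice were fasted in the light, at ZT4 and ZT8, and fed in the dark, at ZT16 and ZT20, and under DRF the reverse. The switch of food was taken to be at lights on and lights off, so ZT0, ZT12 and ZT24 lie on a switch and enter neither side. A gene that follows the fast therefore differs between fasted and fed mice in the same direction under both regimens, and a gene that follows the light differs in opposite directions. Differences are given on the scale of log2(CPM + 1) with the standard error (SE) of a limma fit over 12125 genes, in which adjusted p is the Benjamini-Hochberg value over all of these genes. The effect of the fast is the mean of the 4 fasted groups minus that of the 4 fed groups, and the effect of light is the mean of the 4 groups in the light minus that of the 4 in the dark, with 16 mice on each side.

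Levels per length differed widely among the members, from 2.78 CPM per kilobase of exon for Atg16l1 to 377 for Gabarapl1, with a median of 9.54. Gabarap had the next highest level, 209, ahead of Sqstm1 with 115, Map1lc3a with 45.5 and Gabarapl2 with 45.1. Ulk1, the kinase of the initiating complex, had 13.7 CPM per kilobase, above the median and far below these 5. Wipi1, a protein that binds the lipid made by the PI3-kinase, had 5.55, below the median. With their annotated lengths, Becn1 and Atg4d did not give whole reads. Their levels per length and the size of their differences are therefore uncertain.

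In the fast, 14 of the 38 members were higher and 6 were lower with an adjusted p under 0.05, against 40.2% of all genes tested that passed in either direction (18.7% higher and 21.4% lower). The members went both ways, and their median effect was 0.016 against -0.008 over all genes. By role, the genes higher in the fast were in the initiation, nucleation, lipid transfer, LC3 and GABARAP, and cargo receptor groups. No difference between roles was tested. The plot of both regimens against each other shows where each member lies.

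**Figure D1:**
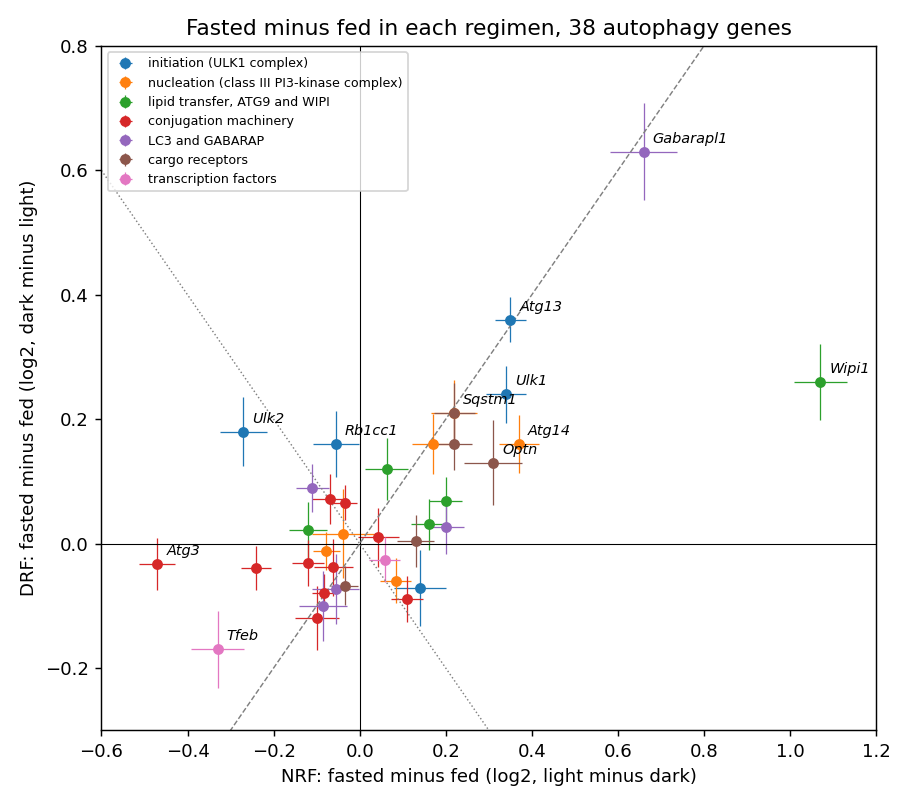
Difference between fasted and fed mice under NRF (x axis) and under DRF (y axis) for the 38 members, in log2 units with SE bars and colour by role. Genes near the dashed line differed by the same amount in both regimens, as Gabarapl1 (0.66 and 0.63) and Atg13 (0.35 and 0.36) did, and genes near the dotted line differed by opposite amounts, as Ulk2 did (-0.27 and 0.18).

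Within the single regimens, 24 members differed between fasted and fed mice under NRF, where 45.1% of all genes did, and 13 under DRF, where 29.0% did. Ulk1, Atg13, Pik3c3, Pik3r4, Atg14, Wipi1, Gabarapl1, Sqstm1 and Nbr1 were higher in the fast under both regimens. These 9 of 38 members compare with 3.91% of all genes that were higher in the fast under both. Atg4b and Tfeb were lower in the fast under both, as were 4.76% of all genes. Ulk2 followed the light, lower in the light under both regimens, as were 2.25% of all genes; no member was higher in the light under both, where 3.67% of all genes were, although 1 member had that pattern at an unadjusted p under 0.05 in the limma fit. The light pattern was unstable: Ulk2 lost it with TPM scaling, without the mice numbered 2 or 3, and from either pair of times alone. From ZT4 and ZT16 alone, Rb1cc1 was the member lower in the light under both regimens, and from ZT8 and ZT20 alone Tax1bp1 and Bnip3l were higher in the light under both. In the contrast of light against dark, 7 members were higher and 7 lower (37.7% of all genes passed, 18.9% higher and 18.8% lower), with a median of 0.008 against -0.005 for all genes. Of the marker lists, 3 of 5 liver, 2 of 3 distal tubule, 1 of 3 thick ascending limb and 1 of 7 proximal tubule genes were also lower in the light, and 1 of 7 collecting duct, 1 of 3 podocyte and 1 of 5 immune genes were higher. Their part in this contrast was not tested. The count of 14 was 9 without the mice numbered 3 and 7 without those numbered 2, when Ulk2, Atg14, Wipi1, Atg3, Atg7, Atg16l1 and Gabarapl2 remained. The DRF count was sensitive to the mice included and fell to 6 without the mice numbered 3 and to 8 without those numbered 2. Without the mice numbered 3, Ulk1, Atg13, Wipi1, Gabarapl1 and Sqstm1 were the 5 members still higher in the fast under both regimens, and without any one of replicates 1, 2 and 3 neither Atg4b nor Tfeb was lower under both. With TPM scaling, 6 of the 9 were still higher under both, and Pik3c3, Pik3r4 and Atg14 were not.

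The sequences before the gene starts were searched for letters that transcription factors named for autophagy are known to bind. RefSeq promoters of build GRCm38.p6 were at hand for 31 of the 38 members, and the 250 bases before the start were read on both strands. CACGTG, the E-box that TFEB and clock factors can bind, was found in Atg3, Atg5 and Atg7, and in 6.02% of all 32851 promoters. The CLEAR element, a longer element around an E-box, was found in no member and in 0.24% of promoters, and TGTTTAC, a FOXO site, in no member and in 3.17%. AGGTCA, the core site of many nuclear receptors, was found in Atg4a, Gabarapl2, Nbr1, Pik3r4, Tax1bp1 and Ulk2, and in 14% of promoters. A match is only a run of letters, and its absence from this window says nothing of the factor. Atg7 holds the E-box but had no call in the fast, and its sequence is not shown. Of the members shown, Wipi1, Gabarapl1 and Atg13 were the 3 of largest effect in the fast. Atg3 and Atg5 hold the E-box and were lower in the fast. Ulk2 was lower in the light under both regimens, a pattern that was unstable. The sequences are given 5′ to 3′, without bases that lie in exons of protein-coding transcripts. They lie at chr6:129532942-129533159 (plus strand, Gabarapl1), chr11:109611433-109611639 (minus, Wipi1), chr2:91710593-91710842 (minus, Atg13), chr16:45158707-45158784 (plus, Atg3), chr10:44268089-44268338 (plus, Atg5) and chr11:61855093-61855342 (minus, Ulk2). Capitals mark the E-boxes, 94 and 71 bases before the start in Atg3 and 14 in Atg5, and AGGTCA 242 bases before it in Ulk2. The others hold no match.
Gabarapl1: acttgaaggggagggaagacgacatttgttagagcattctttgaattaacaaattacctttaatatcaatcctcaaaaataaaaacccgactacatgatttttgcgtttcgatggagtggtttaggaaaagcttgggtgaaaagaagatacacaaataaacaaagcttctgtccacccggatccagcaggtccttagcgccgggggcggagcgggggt
Wipi1: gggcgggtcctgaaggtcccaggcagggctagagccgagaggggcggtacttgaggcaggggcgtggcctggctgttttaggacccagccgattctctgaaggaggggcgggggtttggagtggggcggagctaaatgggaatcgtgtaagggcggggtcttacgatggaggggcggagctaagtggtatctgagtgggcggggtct
Atg13: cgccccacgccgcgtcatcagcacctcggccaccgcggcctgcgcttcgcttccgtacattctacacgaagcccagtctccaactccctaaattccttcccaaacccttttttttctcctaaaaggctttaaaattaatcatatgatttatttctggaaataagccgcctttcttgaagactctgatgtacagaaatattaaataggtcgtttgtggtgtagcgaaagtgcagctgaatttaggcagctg
Atg3: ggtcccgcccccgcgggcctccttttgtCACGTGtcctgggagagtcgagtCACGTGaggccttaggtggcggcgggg
Atg5: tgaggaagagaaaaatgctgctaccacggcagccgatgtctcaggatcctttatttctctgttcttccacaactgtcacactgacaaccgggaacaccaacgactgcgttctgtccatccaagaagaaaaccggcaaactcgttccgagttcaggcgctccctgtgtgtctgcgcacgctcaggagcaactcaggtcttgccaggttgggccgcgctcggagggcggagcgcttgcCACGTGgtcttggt
Ulk2: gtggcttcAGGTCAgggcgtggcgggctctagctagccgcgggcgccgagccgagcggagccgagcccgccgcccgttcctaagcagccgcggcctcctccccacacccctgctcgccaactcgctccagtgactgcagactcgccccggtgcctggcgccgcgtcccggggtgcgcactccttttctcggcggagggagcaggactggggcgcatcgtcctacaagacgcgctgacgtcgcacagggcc

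Gabarapl1 encodes a GABARAP protein that is attached to the autophagosome membrane. Under NRF the fasted mice had 979, 948, 921 and 815 CPM at ZT4 and 798, 933, 773 and 859 at ZT8, and the fed mice 653, 519, 582 and 544 at ZT16 and 532, 539, 539 and 544 at ZT20. The 8 fasted mice all lay above the 8 fed mice. Under DRF the fasted mice had 747, 912, 1070 and 810 CPM at ZT16 and 1060, 1090, 982 and 879 at ZT20, and the fed mice 529, 551, 513 and 443 at ZT4 and 791, 666, 741 and 698 at ZT8. Here the groups overlapped only through the fed mice at ZT8, of which 1 was above the lowest fasted mouse. At the switches of food the means were 597 ± 103, 837 ± 137 and 632 ± 60.8 CPM (SD, n = 4) at ZT0, ZT12 and ZT24 under NRF and 1050 ± 161, 523 ± 42.9 and 1000 ± 68.3 under DRF. The effect of the fast on Gabarapl1 was 0.64 (SE 0.0554, adjusted p = 9.79e-13), a fold of 1.56, and the effect of light was 0.015 (SE 0.0554, adjusted p = 0.86). GENCODE M21 places an antisense transcript over 28.3% of the exon bases of Gabarapl1, and how strand was used in counting is not given in the sources used here.

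Wipi1 had the largest effect of the fast, 0.67 (SE 0.0433, adjusted p = 3.04e-16), and also the largest effect of light among the members. Under NRF, Wipi1 stood at 30.7, 30.6, 30.6 and 32.4 CPM at ZT4 and 35.3, 31.9, 33.9 and 38.2 at ZT8, and at 14.7, 13.4, 14.5 and 12.7 at ZT16 and 14.8, 15.3, 17.4 and 19.2 at ZT20. The lowest fasted mouse, at 30.6, was well above the highest fed mouse, at 19.2. Under DRF the fasted mice had 18.2, 21, 20.8 and 16.7 CPM at ZT16 and 25.7, 32.1, 35.7 and 34.2 at ZT20, and the fed mice 14.8, 12.6, 17 and 14.9 at ZT4 and 28, 26.9, 29.0 and 27.9 at ZT8. The DRF groups overlapped widely, and the levels were higher at the second time of each phase. At ZT0, ZT12 and ZT24 the means of Wipi1 were 18 ± 1.22, 30.2 ± 3.65 and 19.8 ± 1.37 CPM (SD, n = 4) under NRF and 32.5 ± 1.82, 19.3 ± 1.28 and 32.5 ± 2.56 under DRF. Among these switches of food, each regimen was higher at the end of its own fast. The highest NRF mean of Wipi1, 34.8 CPM, was at ZT8. The fasted minus fed difference of Wipi1 was 1.07 under NRF (SE 0.0612, fold 2.1, adjusted p = 1.8e-18) and 0.26 under DRF (SE 0.0612, fold 1.2, adjusted p = 0.00101). The effect of light, 0.40 (SE 0.0433, adjusted p = 5.2e-10), is the test that these 2 differences are unequal. Without the mice numbered 2 the DRF difference of Wipi1 was 0.19 and missed the threshold.

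Atg13, a subunit of the ULK1 complex that mTORC1 holds inactive in fed cells, had fasted minus fed differences of 0.35 under NRF and 0.36 under DRF. The NRF mice had 61.8, 54.3, 61.5 and 58.0 CPM at ZT4 and 60.1, 65.3, 57.5 and 63.9 at ZT8 when fasted, and 48.4, 51.9, 54.6 and 48.8 at ZT16 and 43.4, 44.9, 42.0 and 43.0 at ZT20 when fed. Under DRF the fasted mice had 61.1, 61.5, 70.6 and 59.3 CPM at ZT16 and 55.0, 55.9, 54.6 and 58.0 at ZT20, and the fed mice 43.9, 42.2, 38.6 and 46.2 at ZT4 and 50.0, 48.3, 47.8 and 52.5 at ZT8. All 8 fasted DRF mice were above all 8 fed ones, and under NRF a single fed mouse reached the fasted range. At ZT0, ZT12 and ZT24 the means were 46.0 ± 0.327, 58.6 ± 1.58 and 41.8 ± 0.95 CPM (SD, n = 4) under NRF and 61.7 ± 2.14, 42.2 ± 2.47 and 56.0 ± 3.11 under DRF. Such a separation was seen for 1 member under DRF, where 2.04% of all genes had it, and for 4 under NRF (Atg14, Wipi1, Gabarapl1 and, with the fasted mice lower, Atg3), where 6.89% had it. The effect of the fast on Atg13 was 0.36 (SE 0.0256, fold 1.28, adjusted p = 4.82e-15) and that of light -0.004 (SE 0.0256, adjusted p = 0.921).

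**Figure D2:**
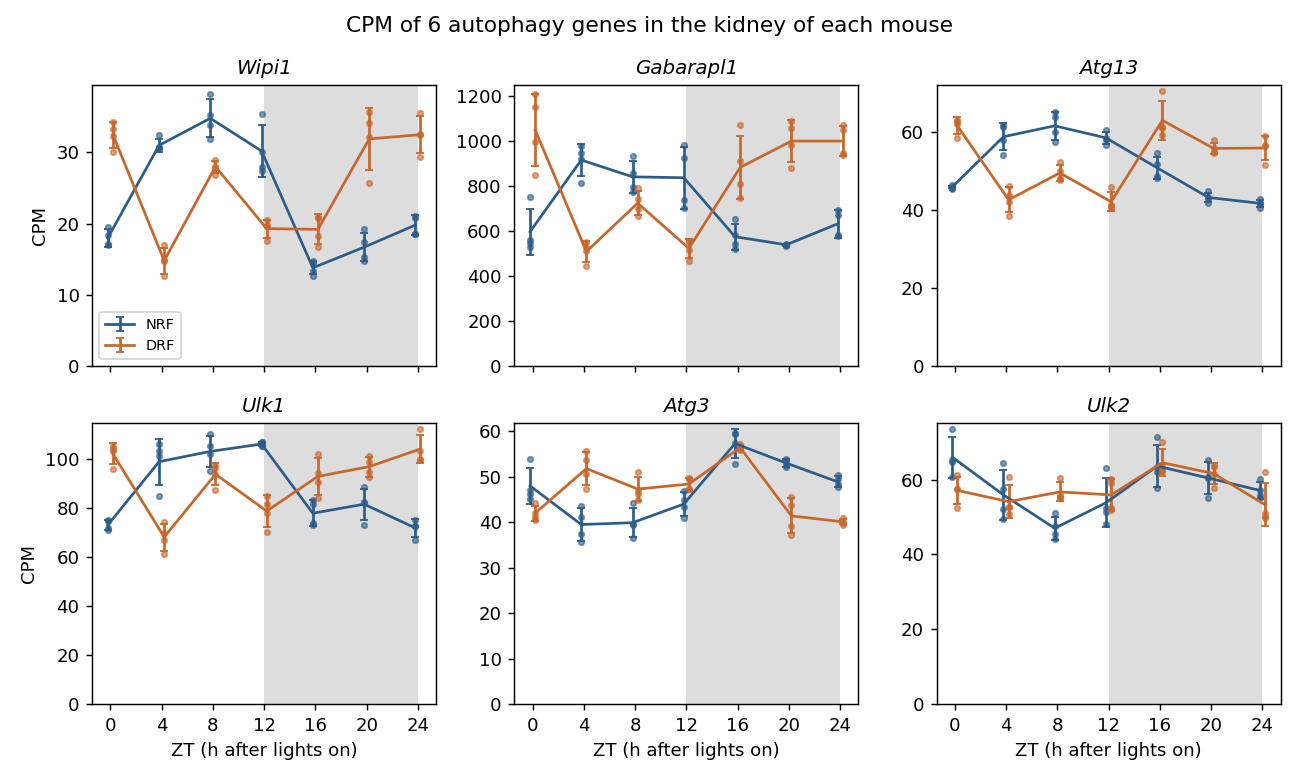
CPM (y axis, from 0) against ZT (x axis, in h) for 6 members, with a point for each mouse, lines through the means of 4 mice and bars of 1 SD, and the dark phase shaded. Gabarapl1 and Atg13 are high in the light under NRF and in the dark under DRF. Ulk1 is high in the light under NRF. Under DRF it is as high at ZT8 in the light (93.7) as at ZT16 and ZT20 in the dark (92.8 and 96.8). Wipi1 under DRF has a second maximum of 28 CPM at ZT8, Atg3 is at its NRF highest at ZT16 (57.3), and the lines of Ulk2 lie near each other in the dark.

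Among the other members of the initiating complex, Ulk1 rose by 0.29 in the fast (SE 0.0322, fold 1.22, adjusted p = 7.77e-10). Under NRF its means were 98.8 ± 9.4 and 103 ± 6.22 CPM (SD, n = 4) in the fast (ZT4, ZT8), 77.8 ± 5.21 and 81.5 ± 6.3 in the meal (ZT16, ZT20), and 73.0 ± 1.96, 106 ± 0.914 and 71.8 ± 3.49 at ZT0, ZT12 and ZT24. Under DRF they were 92.8 ± 7.56 and 96.8 ± 4.04 in the fast (ZT16, ZT20), 68.1 ± 5.5 and 93.7 ± 4.52 in the meal (ZT4, ZT8), and 102 ± 4.26, 78.7 ± 6.43 and 104 ± 5.74 at ZT0, ZT12 and ZT24. The highest means were at the end of the fast in both regimens, at ZT12 under NRF and at ZT24 under DRF, and they lay within 1 SD of the mean 4 h earlier under NRF and within 2 SD under DRF.

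Ulk2, the close relative of Ulk1, differed from it. The effect of the fast on Ulk2 was -0.043 (SE 0.0388, adjusted p = 0.392) and that of light -0.23 (SE 0.0388, adjusted p = 8.83e-06), with the lower level in the light. Single NRF mice had 64.5, 49.5, 52.2 and 57.4 CPM at ZT4, 44.0, 51.0, 47.5 and 45.5 at ZT8, 57.8, 71.3, 63.4 and 61.9 at ZT16 and 60.4, 65.3, 60.6 and 55.1 at ZT20. Single DRF mice had 52.6, 52.7, 50.7 and 60.6 at ZT4, 55.8, 55.3, 55.2 and 60.5 at ZT8, 63.6, 61.9, 69.9 and 62.6 at ZT16 and 57.7, 63.9, 61.4 and 63.3 at ZT20. The lowest values were those of NRF mice at ZT8. Group means of Ulk2 under NRF were 55.9 ± 6.62 and 47.0 ± 3.01 CPM in the light (ZT4, ZT8), 63.6 ± 5.64 and 60.4 ± 4.19 in the dark (ZT16, ZT20), and 66.0 ± 5.46, 53.8 ± 6.5 and 57.1 ± 2.22 at ZT0, ZT12 and ZT24. The DRF means covered a narrower range, with 54.1 ± 4.37 and 56.7 ± 2.54 in the light, 64.5 ± 3.66 and 61.6 ± 2.8 in the dark, and 57.1 ± 3.59, 55.9 ± 4.34 and 53.3 ± 5.73 at ZT0, ZT12 and ZT24. Fasted and fed mice overlapped in both regimens. The DRF difference of Ulk2, 0.18, lost its call without the mice numbered 2 or 3 and with TPM scaling. Rb1cc1, which encodes the scaffold FIP200, also had an effect of light, -0.11 (SE 0.0378, adjusted p = 0.0199). It came from ZT4 and ZT16: from ZT8 and ZT20 alone the value was 0.052. Rb1cc1 was at 73.3 ± 8.62 CPM at ZT4 and 84.6 ± 9.94 at ZT16 under NRF, and at 68.7 ± 5.14 and 87.0 ± 7.13 at the same times under DRF. At the other NRF times it was at 80.8 ± 5.41 (ZT0), 80.9 ± 3.76 (ZT8), 83.0 ± 2.49 (ZT12), 75.7 ± 4.24 (ZT20) and 75.2 ± 6.86 (ZT24), and under DRF at 78.7 ± 5.24, 73.5 ± 3.99, 71.0 ± 5.6, 72.9 ± 2.14 and 76.3 ± 4.7. Atg101, a partner of ATG13, had an effect of light of 0.11 with an adjusted p of 0.0495, a call lost in 6 of 13 other fits, and an effect of the fast of 0.034 (adjusted p = 0.558).

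The class III PI3-kinase complex makes the lipid that recruits WIPI proteins. Of its 6 members, 3 were higher in the fast, where 18.7% of all genes were. They were the kinase Pik3c3 (0.21, SE 0.0379), its regulatory subunit Pik3r4 (0.16, SE 0.0339) and Atg14 (0.26, SE 0.033), the subunit that directs the complex to autophagosome formation. Pik3c3 and Pik3r4 differed by nearly equal amounts under both regimens (0.22 and 0.21 for Pik3c3, 0.17 and 0.16 for Pik3r4). The DRF calls of both, and that of Atg14, were lost with TPM scaling, without the mice numbered 3, and from ZT8 and ZT20 alone. For Atg14 the difference was larger under NRF, 0.37, than under DRF, 0.16 (effect of light 0.11, SE 0.033, adjusted p = 0.00898). Atg14 fell to its lowest mean, 15.2 ± 1.14 CPM, at the end of the DRF meal at ZT12, when NRF mice had 25.7 ± 1.29. This was the largest difference between regimens at ZT12 among the members, -0.72. The other DRF means of Atg14 were 22.5 ± 2.56 CPM at ZT0, 20.1 ± 0.784 at ZT4, 23.5 ± 1.09 at ZT8, 26.4 ± 1.43 at ZT16, 22.6 ± 1.52 at ZT20 and 22.4 ± 0.632 at ZT24, and the NRF means 19.9 ± 1.82, 24.5 ± 1.5 and 26.9 ± 1.89 at ZT0, ZT4 and ZT8 and 19.9 ± 1.12, 19.3 ± 0.825 and 19.4 ± 1.62 at ZT16, ZT20 and ZT24. Becn1, Uvrag and Ambra1, which encode Beclin 1 and regulators of the complex, had effects of the fast between -0.045 and 0.012 that missed the threshold; Ambra1 was higher in the light by 0.072 (adjusted p = 0.0224), a call lost in 5 of 13 other fits, where the value went down to 0.006. A gene on the opposite strand shares 43.9% of the exon bases of Becn1, and whether reads of both were told apart there is not known.

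Of the 5 genes for membrane supply, 4 were higher in the fast, where 18.7% of all genes were. They were Wipi1, its relative Wipi2 (0.10, SE 0.0291), and the lipid transfer proteins Atg2a (0.13, SE 0.0271) and Atg2b (0.092, SE 0.0356). Within DRF only Wipi1 of the 5 passed. Wipi2 and Atg2a passed within NRF, and Atg2b in neither regimen alone. The fasted minus fed difference of Atg2a was 0.20 under NRF and 0.068 under DRF. Atg2b and Wipi2 were the less stable calls, lost in 6 and 3 of the 13 other fits. Atg9a, the membrane protein of the vesicles that seed the autophagosome, had -0.052 (adjusted p = 0.192), and shares 31.8% of its exon bases with neighbouring annotated genes.

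In the conjugation machinery 5 of 10 members were lower in the fast and none was higher, against 21.4% lower and 18.7% higher among all genes, with 0 higher also at an unadjusted p under 0.05 in the limma fit. Within NRF, 4 members were lower and 1 was higher, where 45.1% of all genes passed in either direction. Within DRF only Atg4b passed, and was lower, where 29.0% of all genes passed. Atg3, the enzyme that passes LC3 and GABARAP proteins to the lipid, had -0.25 as its effect (SE 0.0295, adjusted p = 3.59e-09). The other members that fell were Atg16l1, which places the conjugation at the membrane (-0.14, SE 0.0247), the proteases Atg4b (-0.081, SE 0.021) and Atg4d (-0.11, SE 0.0362), and Atg5, a partner of ATG16L1 (-0.074, SE 0.0264). With TPM scaling, the calls for Atg4b and Atg5 were lost, and from ZT8 and ZT20 alone the effect on Atg16l1 was -0.004. The call for Atg5 was lost in 5 of the 13 other fits. That for Atg4d was lost without the mice numbered 1 and from ZT4 and ZT16 alone. The falls of Atg3 and Atg16l1 were of unequal size in the regimens: -0.47 under NRF and -0.033 under DRF for Atg3, with an effect of light of -0.22 (SE 0.0295, adjusted p = 1.16e-07), and -0.24 and -0.039 for Atg16l1. The remaining members, Atg4a, Atg4c, Atg7, Atg10 and Atg12, had effects of the fast between -0.050 and 0.027 that missed the threshold. Atg7, the activating enzyme of both conjugation systems, was higher in the light by 0.10 (SE 0.0262, adjusted p = 0.00298), and Atg4c and Atg12 were lower by 0.071 and 0.050, calls that were lost in 7 and 8 of 13 other fits.

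In NRF mice Atg3 was at 39.5 ± 3.6 and 39.9 ± 3.17 CPM in the fast (ZT4, ZT8), 57.3 ± 3.25 and 53.0 ± 0.817 in the meal (ZT16, ZT20), and 48.0 ± 3.91, 44.0 ± 2.54 and 48.9 ± 1.18 at ZT0, ZT12 and ZT24. In DRF mice it was at 56.4 ± 0.618 and 41.4 ± 3.84 in the fast, 51.8 ± 3.6 and 47.3 ± 2.61 in the meal, and 42.0 ± 1.64, 48.4 ± 1.37 and 40.1 ± 0.593 at ZT0, ZT12 and ZT24. ZT16 was the highest point in both regimens, in fed NRF mice and in DRF mice that had been fasted for 4 h.

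Of the 5 LC3 and GABARAP genes, Gabarapl1 and Map1lc3b rose in the fast, where 18.7% of all genes did. Map1lc3b, the LC3 gene most used as an autophagosome marker, rose by 0.11 (SE 0.0306, adjusted p = 0.00248), with 0.20 under NRF and 0.026 under DRF. The DRF difference missed the threshold. Map1lc3b was also called higher in the light, a call lost in 2 of 13 other fits. Map1lc3a, Gabarap and Gabarapl2 had -0.064, -0.095 and -0.013, each past no threshold, and Gabarapl2 was lower in the light by 0.10 (adjusted p = 0.00262). Of the family, Gabarapl1 had both the highest level per length and the largest difference.

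Among 5 cargo receptors, 3 rose in the fast, where 18.7% of all genes did. Sqstm1, which encodes p62, rose by 0.21 (SE 0.0342), Nbr1 by 0.19 (SE 0.0297), and the mitophagy receptor Optn by 0.22 (SE 0.0483, adjusted p = 0.000248). Sqstm1 and Nbr1 rose under both regimens. Optn differed by 0.31 under NRF (adjusted p = 0.000244) and by 0.13 under DRF (adjusted p = 0.136), and the effect of light on it, which compares these differences, was 0.087 (adjusted p = 0.156). Optn had 22.8 ± 1.39 and 23.9 ± 3.2 CPM in fasted NRF mice at ZT4 and ZT8 and 18 ± 2.71 and 19.4 ± 1.94 in fed mice at ZT16 and ZT20, with 19.1 ± 2.13, 23.6 ± 4.98 and 19 ± 1.06 at ZT0, ZT12 and ZT24. Under DRF it had 17.1 ± 0.5 and 22.3 ± 0.837 at ZT4 and ZT8, 19.7 ± 1.16 and 23.6 ± 2.19 at ZT16 and ZT20, and 20.7 ± 2.35, 20.7 ± 1.28 and 22.5 ± 1.27 at ZT0, ZT12 and ZT24. Tax1bp1 and Bnip3l, the latter a receptor for mitochondria, had -0.051 (adjusted p = 0.0607) and 0.066 (adjusted p = 0.073).

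Tfeb, a transcription factor known for driving autophagy and lysosome genes, was lower in the fast by 0.25 (-0.25, SE 0.0438, fold 0.838, adjusted p = 7.59e-06). Its NRF means were 22.2 ± 1.79 and 23.9 ± 2.58 CPM in the fast at ZT4 and ZT8 and 31.2 ± 3.96 and 27.6 ± 2.3 in the meal at ZT16 and ZT20, with 24.9 ± 2.06, 24.4 ± 3.53 and 27.6 ± 1.73 at ZT0, ZT12 and ZT24. Its DRF means were 26.2 ± 3.17 and 21 ± 0.605 in the fast at ZT16 and ZT20 and 28.7 ± 2.7 and 24.7 ± 1.5 in the meal at ZT4 and ZT8, with 24.5 ± 0.523, 27.3 ± 0.901 and 24.3 ± 1.99 at ZT0, ZT12 and ZT24. The RNA of Tfeb says nothing of where the protein was, which is its main known point of control. Tfe3, a factor of the same family, had 0.016 (adjusted p = 0.643).

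**Figure D3:**
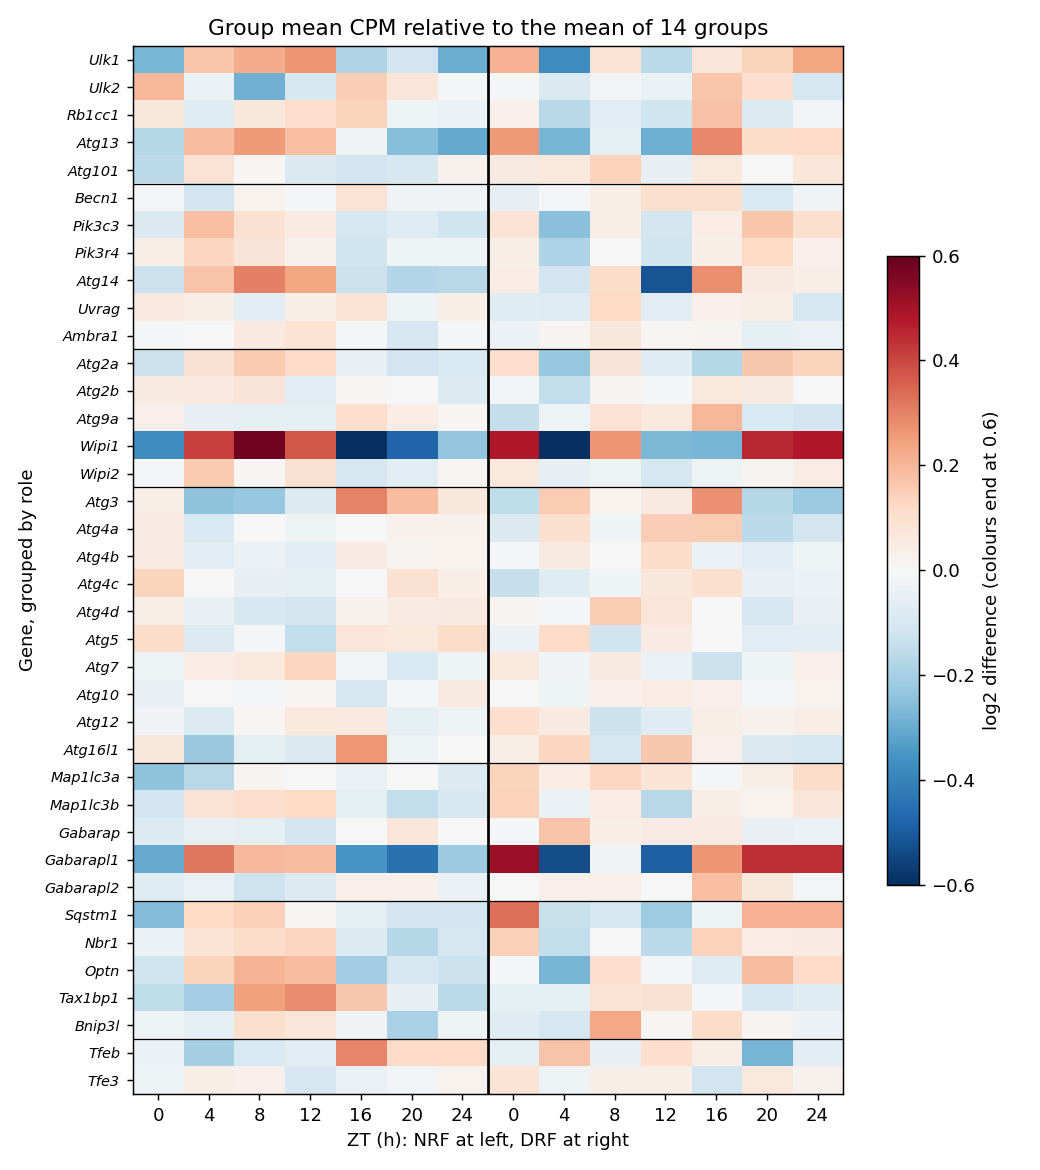
Mean CPM of each group relative to the mean of the 14 groups, in log2 units, for the 38 members (rows, with lines between the roles in the order initiation, nucleation, lipid transfer, conjugation, LC3 and GABARAP, cargo receptors and transcription factors) at each ZT under NRF (left) and DRF (right). Wipi1 and Gabarapl1 have the widest range, and the dark cell of Atg14 is its DRF mean of 15.2 CPM at ZT12.

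The regimens were also compared at each clock time. DRF minus NRF passed the test for 24 members at ZT4 (32.0% of all genes) and 10 at ZT8 (19.4%), for 8 at ZT16 (7.50%) and 14 at ZT20 (21.4%), and at the switches of food for 13 at ZT0 (21.1%), 17 at ZT12 (24.2%) and 11 at ZT24 (17.5%). At ZT4, when DRF mice were fed and NRF mice fasted, 13 of the 24 were lower under DRF, as were 14.5% of all genes, led by Wipi1 (-1.02), Gabarapl1 (-0.85), Ulk1 (-0.53) and Atg13 (-0.45), and 11 were higher, as were 17.5%, led by Atg3 (0.39), Tfeb (0.35) and Atg16l1 (0.34). At ZT20 the signs were turned, with Wipi1 and Gabarapl1 each higher under DRF by 0.89, Atg13 by 0.36 and Sqstm1 by 0.32, and with Tfeb (-0.37) and Atg3 (-0.35) lower. Averaged over clock time, the mesor differed for 3 members, as it did for 9.77% of all genes (5.20% higher and 4.58% lower under DRF): Map1lc3a and Gabarapl2 were higher under DRF by 0.12 and 0.089, and Tax1bp1 was lower by 0.058 (-0.058). Without the mice numbered 3, no mesor passed in the limma fit and 6 did at an unadjusted p under 0.05, and without those numbered 1 only Gabarapl2 passed. Of the marker lists, 4 of 5 blood genes were higher under DRF at ZT0 and 5 of 5 at ZT8, and all 5 immune genes tested were lower under DRF at ZT12 and 4 of 5 in mesor. Their part in these differences was not tested.

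A 24-h cosine was fitted to each gene within each regimen. It passed for 26 members under NRF, where 54.7% of all genes passed, and for 19 under DRF, where 40.9% did, of which 16 passed in both, as 26.8% of all genes did. Peaks were 8 h or more apart for 11 of these 16 members and for 38.2% of the 3245 genes rhythmic in both (10.2% of all genes tested). They were at most 4 h apart for 3 members and 30.1% of these genes (8.05% of all tested), and lay between for 2 members and 31.7% (8.49% of all tested). Atg13 peaked at ZT 8.97 under NRF and at ZT 19.9 under DRF, a shift of 10.9 h (SE 0.759), and Gabarapl1 at ZT 7.48 and 20.7 (shift -10.8 h, SE 0.738). Ulk1 moved by 11.2 h, Nbr1 by 11.9 h, Pik3c3 by -11.9 h, Pik3r4 by -10.2 h, Sqstm1 by -10.5 h, Wipi1 by -9.27 h and Tfeb, whose NRF peak was in the dark, by -9.89 h, where a shift near 12 h can carry either sign. The members whose peaks moved by at most 4 h were Ulk2 (-3.43 h, SE 1.21), Tax1bp1 (-2.02 h, SE 0.961) and Bnip3l (3.2 h, SE 1.72). Tax1bp1, a receptor for ubiquitin-tagged cargo, peaked at ZT 12.3 under NRF with an amplitude of 0.25 and at ZT 10.3 under DRF with an amplitude of 0.091. The rhythms differed between regimens for 27 members (50.0% of all genes). The DRF count depended on the mice, with 9, 7 and 10 members rhythmic without replicates 1, 2 and 3, and 11 without ZT24.

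Under DRF several members had a second maximum within the day. A 12-h component passed for 12 members under DRF, where 30.7% of all genes passed, and for 0 under NRF by the same limma test, where 1.25% of all genes passed and 3 members did at an unadjusted p under 0.05. The 12 were Ulk1, Pik3c3, Atg14, Atg2a, Wipi1, Atg3, Atg4a, Atg5, Atg16l1, Optn, Tfeb and Tfe3, and 6, 6 and 7 members passed without replicates 1, 3 and 4. Atg2a, Wipi1, Atg3, Optn and Tfeb were among those that passed in each of these. The largest 12-h amplitude was that of Wipi1, 0.47, with fitted maxima at ZT 9.53 and 12 h later. Samples taken every 4 h put few time points on a 12-h cycle, so the time of such a maximum is uncertain.

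To place this maximum, both sampling times within each phase were compared, a comparison added after the values had been seen. Between 4 and 8 h of the DRF meal, from ZT4 to ZT8, 10 members rose and 3 fell, where 10.3% of all genes rose and 10.8% fell (21.0% in all). Wipi1 rose by 0.88 (SE 0.0865, fold 1.84, adjusted p = 2.39e-10), Gabarapl1 by 0.51 (SE 0.111, fold 1.42), Ulk1 by 0.46 (SE 0.0644), Optn by 0.36 and Bnip3l by 0.33, and Atg5, Atg16l1 and Atg12 fell. Between 4 and 8 h of the NRF meal, no member rose and 4 fell in the limma fit (1 rose at an unadjusted p under 0.05), where 5.83% of all genes rose and 6.02% fell (11.9% in all); there the differences of Wipi1 and Gabarapl1 were 0.25 (adjusted p = 0.0534) and -0.088 (adjusted p = 0.676). Food intake within the meal was not part of the data analysed here, so how much each mouse had eaten by ZT8 is not known. From ZT8 and ZT20 alone, Atg13, Gabarapl1 and Sqstm1 were the 3 members higher in the fast under both regimens, Atg3 was lower under both, and the DRF differences of Ulk1 (0.047) and Wipi1 (0.17) missed the threshold, while that of Atg14 turned to -0.058.

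Mice of both regimens were then compared at the same number of hours since food was removed or given, also a comparison added after the values had been seen. After 4 h of fasting, DRF differed from NRF for 17 members, 12 higher and 5 lower (33.4% of all genes, 17.1% higher and 16.3% lower). Wipi1 was lower under DRF by 0.67 (-0.67, SE 0.0865, fold 0.628, adjusted p = 5.8e-08) and Atg3 was higher by 0.51 (SE 0.059, fold 1.42, adjusted p = 5.51e-09). After 8 h, 4 members differed (14.5% of all genes), and neither Wipi1 (-0.13, SE 0.0865, adjusted p = 0.343) nor Atg3 was among them. Over these 4 h, 12 members changed in the DRF fast (28.3% of all genes) and 4 in the NRF fast (13.7%). In the DRF fast, Wipi1 rose by 0.70 (SE 0.0865, adjusted p = 2.59e-08) and Atg3 fell by 0.44 (-0.44, SE 0.059, adjusted p = 1.33e-07). Gabarapl1 differed between regimens by -0.061 at 4 h (SE 0.111, adjusted p = 0.711) and by 0.25 at 8 h (SE 0.111, adjusted p = 0.123), and Ulk1 by -0.087 and -0.089 (SE 0.0644 each). After 4 h of feeding 6 members differed, all lower under DRF (18.6% of all genes differed, 10.2% higher and 8.45% lower), and after 8 h 13 members differed, 11 of them higher (16.6% differed, 8.19% higher and 8.40% lower), with Wipi1 higher by 0.72 and Bnip3l and Gabarapl1 by 0.42 each. Without the mice numbered 1, only Atg14, Wipi1 and Bnip3l of these 13 still passed, and without those numbered 3 only Atg13 and Tax1bp1 of the 6. Fewer members passed with TPM scaling: 8 after 4 h of fasting, 3 after 4 h of feeding and 7 after 8 h of feeding.

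**Figure D4:**
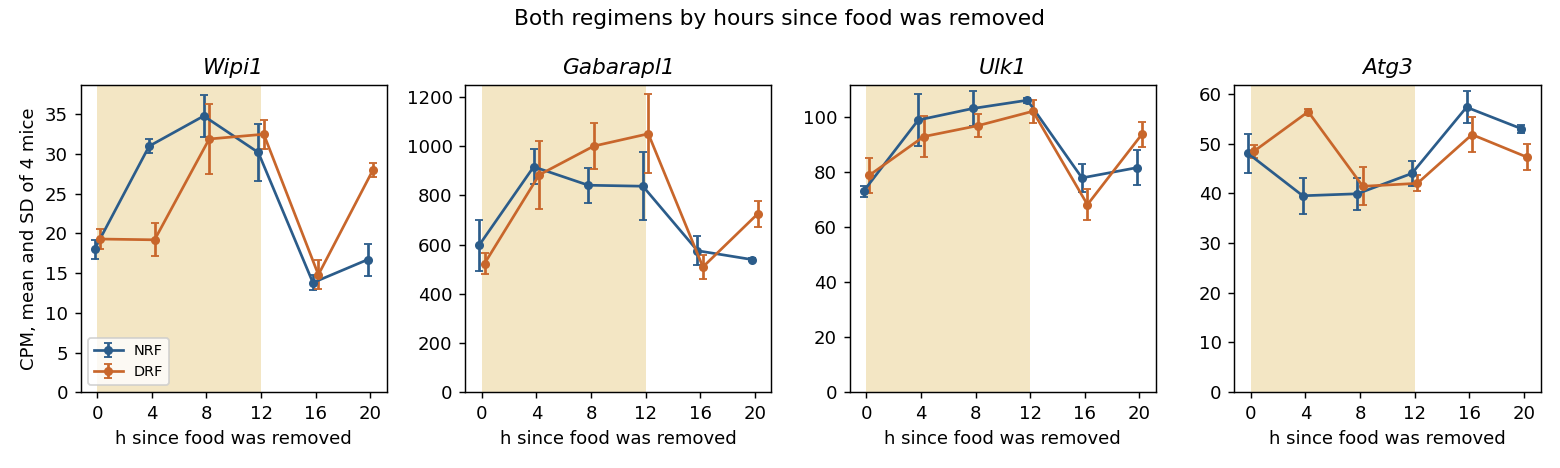
Mean CPM (y axis, from 0) and SD of 4 mice against hours since food was removed (x axis), with the fast shaded, for 4 members under NRF and DRF, ZT24 not drawn. The regimens lie close for Ulk1 and Gabarapl1 in the fast and part at 4 h for Wipi1 (31.0 and 19.2) and Atg3 (39.5 and 56.4), and at 20 h, 8 h into the meal, Wipi1, Gabarapl1 and Ulk1 are higher under DRF.

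The pathway around the members was followed with further lists of known genes, also chosen with earlier results of these data known. Their counts are read against the 18.7% of all genes that were higher in the fast and the 21.4% that were lower. Of 24 other autophagy genes, 7 were higher in the fast and 4 lower. Depp1, a FOXO target induced by fasting, rose by 1.67 (SE 0.212), and Calcoco1, a receptor for the endoplasmic reticulum and Golgi, by 0.49 (SE 0.0387), while Stbd1, a glycogen-binding receptor, changed by -0.41 (SE 0.115) and Atg16l2 by -0.27 (SE 0.053). Depp1 and Calcoco1 were higher under both regimens. In the list of 15 genes for fusion of the autophagosome with the lysosome, 3 were higher, with Stx17, the fusion syntaxin, at 0.24 (SE 0.0354) and the tethering subunit Vps39 at 0.12 (SE 0.0265), and 2 were lower, Rilp (-0.14, SE 0.0569) and the SNARE Ykt6 (-0.13, SE 0.0223).

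Of 38 lysosome genes, 4 were higher in the fast and 5 lower, with a median effect of 0.022. This is a smaller share of called genes than the 40.2% over all genes. Neu1, a sialidase, was higher in the fast by 0.24 (SE 0.0706) but followed the light, with an effect of 0.52 (adjusted p = 9.8e-08). Cln3 rose by 0.19 (SE 0.0319). The 2 lower genes of largest effect were the proton pump subunits Atp6v1c1 and Atp6v1d, both -0.13. In mTORC1 and AMPK signalling, 11 of 38 genes were higher and 7 lower. Fnip2, a partner of folliculin, rose by 0.40 (SE 0.0793) and Deptor, an inhibitor within mTOR complexes, by 0.36 (SE 0.0352), and Lamtor5, a part of the Ragulator, and Ddit4, an mTORC1 inhibitor also called REDD1, were lower (-0.30 and -0.25). Of 11 transcription factors and cofactors named for autophagy outside the list, 7 were higher and 3 lower. Ppara, the nuclear receptor of the fasting response, rose by 0.42 (SE 0.0766) and Nr1h4, the bile acid receptor FXR, by 0.32 (SE 0.0662), and Atf4 and Ddit3, of the amino acid and stress response, were lower (-0.31 and -0.26).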

How the data were processed

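Kidney RNA of 56 mice was sequenced. According to the submitters' processing notes, HISAT2, Bowtie2 and RSEM were used with builds mm10 and GRCm38.p6, and versions are not given in the sources used here. The values the authors deposited are named TPM but are a score: log2(CPM + 1), divided by gene length and scaled to a fixed sum per library, as tested on the file. Over the genes with whole reads, themselves chosen for such values, 98.98% of values under 20000 reads were whole (within 0.05 reads, at least 98.68% in each library). Effective library sizes were 24.8 to 28.9 M and recovered reads 23.41 to 25.8 M (M, 1e6). Of 17027 genes, 15034 were used, with exon lengths of GENCODE M21 or, for 698 of them, a searched length. Of 1513 genes with fractional reads, only 15 were kept, because they belonged to the members or the lists followed here. Becn1 and Atg4d gave fractional reads with their annotated lengths, and the length of Atg12 was searched. The table has 1 library column that matched no single sample label (NRF ZT24); it entered its group without a number.

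For 12125 genes with a mean CPM of at least 1, log2(CPM + 1) was fitted by group in limma 3.58.1 (R 4.3.3, lmFit and eBayes with trend), with 2-sided tests and Benjamini-Hochberg adjustment over all of them. The script was also tested on simulated data, with the means and spreads of genes taken from these data. MetaCycle, which the study used for rhythms, was not available, and cosines of 24 h and 12 h replaced it. The mesor weights ZT0 and ZT24 as 1 clock time of 6. Members and lists were chosen with earlier results of these data known. All members are named; values of every group are given for the 8 of largest effect of the fast and the 4 of largest effect of light, and values of every mouse at the fed and fasted times for the 3 and 1 of largest effect. From the other lists, the 2 highest and the 2 lowest called genes are named. Ulk2 was given by mouse although Wipi1 had the larger effect of light. Alternatives were TPM scaling, median-of-ratios scaling, the deposited values without a scale factor per sample, an added constant of 0.1 CPM, no filter or a mean CPM of at least 5, each replicate left out, a replicate block, and a part of the times.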

Additional observations from a re-analysis of the deposited data

Results flagged for a closer look

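Among the 10 members with values for every group, 9 of 140 groups of 4 mice held a mouse far from the others, about as many as the 1 in 20 that chance gives. Wipi1 was at 32.4 CPM in mouse 4 of NRF ZT4 (the others at 30.6 to 30.7). In mouse 3 of NRF ZT0, Gabarapl1 was at 750.0 CPM (531 to 562) and Atg14 at 22.7 (18.9 to 19.1). Atg13 was at 45.9 CPM in mouse 2 of DRF ZT12 (40.6 to 41.3). Ulk2 was at 60.5 CPM in mouse 4 of DRF ZT8 (55.2 to 55.8) and at 61.9 in mouse 4 of DRF ZT24 (49.8 to 51.1). Rb1cc1 was low in mouse 2 of NRF ZT4 (60.5 CPM, others 76.7 to 79.2), mouse 1 of DRF ZT0 (70.8, others 80.8 to 82.0) and mouse 3 of DRF ZT16 (76.4, others 89.2 to 91.2).

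For 14 of the 38 members the fasted minus fed difference was unequal in the regimens, as it was for 37.7% of all genes. This is the same limma test as the effect of light. As NRF minus DRF in log2 units, the largest were those of Wipi1 (0.80), Ulk2 (-0.45) and Atg3 (-0.43). Rb1cc1 had -0.22, Atg101 0.21, Atg14 0.21, Atg16l1 -0.21, Gabarapl2 -0.20, Atg7 0.19, Map1lc3b 0.17, Ambra1 0.14, Atg4c -0.14, Atg2a 0.13 and Atg12 -0.10. The call for Atg2a was the least stable of the 14, lost in 10 of 13 other fits.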

How the results depend on the processing

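Of the 20 members called in the fast, 12 kept their call in all 13 alternatives, and the count stayed between 16 and 21. Leaving out 1 replicate gave 7 to 14 members for light, 6 to 15 for DRF fasted against fed, 7 to 15 for the DRF rhythm, 6 to 8 for the 12-h component under DRF, 63 to 84 calls of 97 for the regimens by clock time and 0 to 3 for the mesor. For DRF minus NRF it gave 11 to 14 after 4 h of fasting, 2 to 4 after 8 h, 2 to 7 after 4 h of feeding and 3 to 9 after 8 h, and for the steps from 4 to 8 h 1 to 3 in the NRF fast and 7 to 12 in the DRF fast. With the deposited values unscaled, 9 members were called for light and 8 after 8 h of feeding. Without ZT24, 11 were rhythmic under DRF. With TPM scaling, the calls were 8 after 4 h of fasting, 3 and 7 after 4 and 8 h of feeding, and 2 each for the steps in the NRF fast and the NRF meal. From ZT8 and ZT20 alone, the effect of light on Rb1cc1 was 0.052, the NRF difference of Becn1 0.041, and the DRF differences of Rb1cc1 and Atg14 -0.01 and -0.058. From ZT4 and ZT16 alone, the effect of light on Atg14 was -0.043 and the NRF difference of Bnip3l -0.031. The cause was not tested.

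Deviations of mice with the same replicate number correlated with a median r of 0.141 over 27 pairs (-0.462 to 0.696, 14 of them over 0.1) and those with different numbers with -0.0479. All 4 pairs at ZT0 were over 0.1, but not those of any other time, so the numbers were not taken to pair the mice. With a replicate block, 20 members were called in the fast, 12 for light, 24 and 12 within NRF and DRF, and 26 and 17 as rhythmic under NRF and DRF.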
